A study of Homo sapiens with 6 samples.

Results

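Plasma proteins and apolipoproteins are the secreted products by which a hepatocyte is best known. This report follows 43 genes of this kind, given as a list of symbols, through 3 human liver cancer lines with and without TGF-β1. All 43 symbols were found among the 22091 gene IDs of the count tables, of which 19574 carried a symbol. The list was read by role: 10 carriers and binding proteins, 7 serpins, 10 genes of fibrinogen, coagulation and fibrinolysis, 8 apolipoproteins, 3 complement genes, and 5 genes of inter-alpha-trypsin inhibitor heavy chains and vitronectin.

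Hepatocytes make most of the protein of blood plasma: albumin for oncotic pressure and transport, transferrin for iron, fibrinogen and prothrombin for clotting, serpins that block proteases, and apolipoproteins that carry lipid. Their genes are driven in the liver by a shared set of transcription factors, among them HNF4A, the FOXA factors and C/EBP factors, and many respond to inflammatory cytokines. Loss of these products is a usual feature of hepatocytes that dedifferentiate in culture or in tumours. TGF-β1 is a cytokine that acts on hepatocytes and hepatoma cells through receptor kinases and SMAD proteins.

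The lines were MHCC97L, MHCC97H and HCCLM3, all derived from human hepatocellular carcinoma. MHCC97L and MHCC97H are known as clones of low and high metastatic potential from the same parental line, and HCCLM3 as a derivative of MHCC97H taken from lung metastases. Each line had 1 control library and 1 library made after exposure to TGF-β1 at 2.5 ng/mL, both at 4 h, so there were 6 libraries in all. All cells, controls included, were kept in DMEM with fetal bovine serum and antibiotics. The labels do not say whether libraries came from separate cultures. With 1 library per line and condition, p-values are measured against how the change after TGF-β1 varied between the lines. Technical spread between these libraries is part of that and cannot be told apart from it. Totals ran from 18485041 to 23242862 counts per library, and a count of 0 allows a level of up to 0.129 to 0.162 CPM (3 counts; CPM is a gene's count relative to the library's total). Levels below are CPM scaled by TMM, and wherever 3 values follow each other they are given in the order MHCC97L, MHCC97H, HCCLM3.

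The list as a whole was weakly expressed. Its summed level was 499, 550 and 239 CPM in the control libraries and 581, 514 and 239 CPM in the TGF-β1 libraries, which is 0.0232% to 0.0566% of a library's counts. HCCLM3 thus held less of it than either MHCC97 line, in both conditions. Of the 43 genes, 17 had a mean of 5 CPM or more, 20 reached 5 CPM in some library, and 17 stayed under 1 CPM in every library. The hepatocyte markers set beside the list were uneven as well. HNF4A, a transcription factor of hepatocytes, lay between 79.0 and 208 CPM, while the urea cycle genes ARG1 and CPS1, the cytochromes CYP3A4 and CYP2E1, the receptor ASGR1 and transthyretin stayed under 1 CPM in every library. The label of liver cancer cells is therefore met by some defining hepatocyte genes and not by others. Of the cholangiocyte or progenitor genes, the keratins KRT19 (469 to 743 CPM) and KRT7 (96.1 to 338 CPM) were high. SOX9 lay between 5.47 and 15.9 CPM and AFP between 3.24 and 5.29 CPM. EPCAM lay between 0.191 and 0.653 CPM, and GPC3 had no count in any library. Markers of other cell types were summed per library over their lists: 11.4 to 34.4 CPM for 7 stellate cell or fibroblast genes, 10.2 to 41.3 CPM for 5 endothelial genes, and 113 to 251 CPM for 5 leukocyte genes, of which CD68 alone gave 109 to 246 CPM. The defining leukocyte genes PTPRC and CD3E reached at most 0.131 CPM, ACTA2 of stellate cells at most 0.131 CPM and CDH5 of endothelium at most 0.348 CPM. Other genes of those lists were present: LUM had 9.27 to 17.7 CPM, COL3A1 0.0435 to 14.4 CPM, PECAM1 5.91 to 31.0 CPM and KDR 2.52 to 10.5 CPM.

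**Figure D1:**
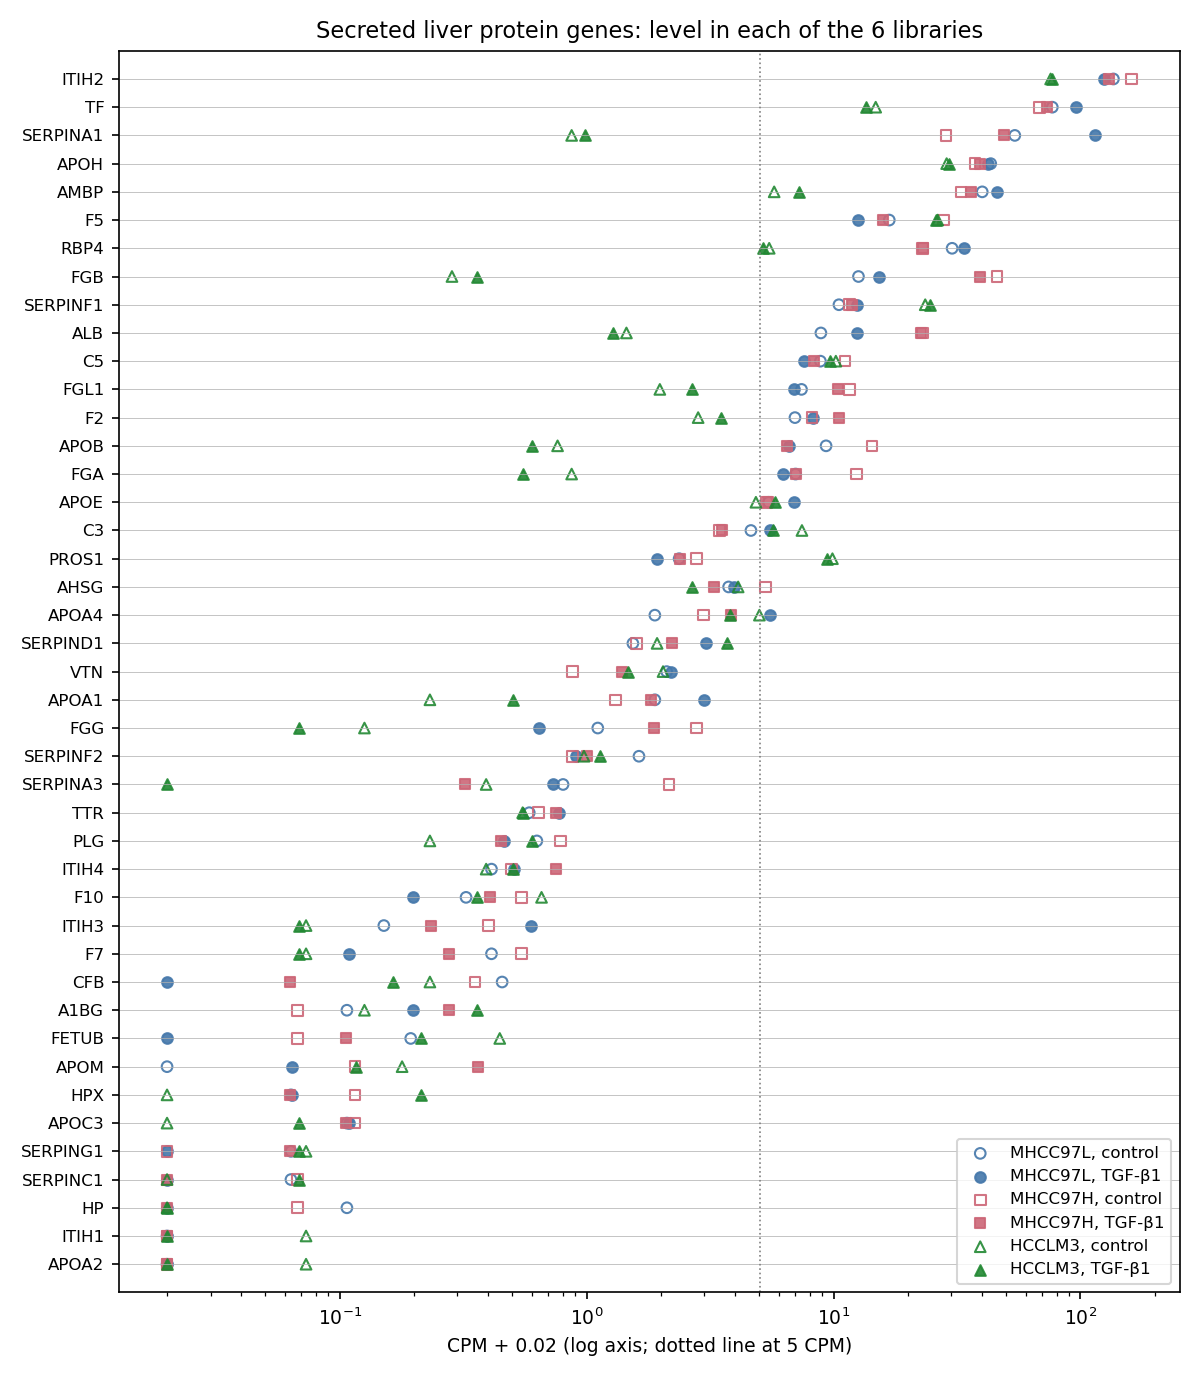
Level of each of the 43 genes in each of the 6 libraries, in CPM plus 0.02 on a log axis, ordered by the mean level; genes with no count in a library sit at 0.02, open symbols are controls and filled symbols TGF-β1 libraries. The green triangles of HCCLM3 stand left of the MHCC97 symbols for FGB, SERPINA1, ALB, APOB and FGA, and right of them for PROS1 and SERPINF1.

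To compare genes with each other, the mean CPM was divided by the length of each gene's exons in kilobases. On that scale ITIH2 ranked first with 34.8 CPM per kb and APOH second with 27.5 CPM per kb, at the 91.1 and 88.6 percentile of the 14176 genes tested. ITIH2 encodes a heavy chain that binds hyaluronan in the extracellular matrix, and APOH encodes beta-2-glycoprotein I, which binds phospholipids. RBP4 (13.9), AMBP (13.7), SERPINA1 (8.43) and FGB (6.98) followed, in CPM per kb, in the mean over all libraries. TF, with a mean of 57.0 CPM, stood at place 13 with 2.18 CPM per kb, as its annotated exons cover 26199 bases. The order differed by line after the first and second place: in HCCLM3 SERPINF1 stood at place 3 with 7.85 CPM per kb, and SERPINA1 (0.185) and FGB (0.112) stood at places 23 and 26. ALB, the most abundant transcript of normal liver, came to only 3.42 CPM per kb, at the 43.3 percentile, and APOB to 0.428 CPM per kb. Dividing by the longest annotated transcript instead left ITIH2 and APOH first and second and raised SERPINF1 from 5.13 to 10.2 CPM per kb. It put AMBP (19.5) above RBP4 (15.3). TF stayed at place 13, as its longest annotated transcript has 20602 bases. Its place would be higher if the lines expressed a shorter transcript, which was not tested.

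Genes near 0 included well-known products of liver. Haptoglobin (HP), antithrombin (SERPINC1), hemopexin (HPX), APOA2 and APOC3 never exceeded 0.2 CPM. APOA2 and ITIH1 each had a single count over all 6 libraries. In all, 11 genes had no count in at least 1 library. The 14 genes that did not pass the filter on low counts never exceeded 0.637 CPM in any library, and 29 genes were tested. Beside those just named they were FETUB, A1BG, SERPING1 (C1 inhibitor), the clotting factors F7 and F10, APOM, CFB, ITIH1 and ITIH3. Transthyretin (TTR), plasminogen (PLG) and ITIH4 were tested but also stayed under 1 CPM. Another 6 genes peaked between 1 and 5 CPM, namely SERPINA3, SERPIND1, SERPINF2, FGG, APOA1 and the adhesion protein vitronectin (VTN). VTN ran from 0.857 to 2.18 CPM and passed in no comparison. Complement factor B (CFB) had 10, 7 and 4 counts in the control libraries and 0, 1 and 3 counts in the TGF-β1 libraries. Its counts had decimals and it shares exon bases with C2 on the same strand, and in the fit without the low-count filter it was not called (adjusted p = 0.134 in edgeR's quasi-likelihood test).

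Neighbouring genes of a family differed widely in level. The inter-alpha-trypsin inhibitor genes ITIH1, ITIH3 and ITIH4 lie side by side at chr3:52777592-52831479 and had mean levels of 0.00195, 0.0396 and 0.0898 CPM per kb, whereas ITIH2, at chr10:7703269-7749520, had 34.8 CPM per kb. SERPINF2, the antiplasmin gene, had a mean of 0.455 CPM per kb, and SERPINF1, the PEDF gene 6.69 kb further on, 5.13 CPM per kb. At the apolipoprotein cluster of chromosome 11, APOA4 had 2.59, APOC3 0.0780 and APOA1 1.01 CPM per kb. The fibrinogen genes FGB, FGA and FGG had 6.98, 1.43 and 0.300 CPM per kb in the mean over all libraries. In HCCLM3 the values were 0.175 CPM per kb for FGA, 0.112 for FGB and 0.0215 for FGG. These rest on only 27, 12 and 3 counts over both HCCLM3 libraries, so the order in that line is uncertain. Fibrinogen holds equal numbers of the 3 chains.

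The lines differed more in these genes than the conditions did. Against MHCC97L, HCCLM3 had 14 genes lower and 3 higher of 29 tested at an adjusted p under 0.05 (edgeR's quasi-likelihood test over all genes), which is 58.6%, beside 29.8% of all 14176 genes tested. Against MHCC97H the counts were again 14 lower and 3 higher, beside 27.2% of all genes. The lower calls compare with 14.8% and 13.9% of all genes called lower, and the higher calls with 15.0% and 13.3% called higher. Both comparisons use the same 2 HCCLM3 libraries, so they are not independent of each other. The median difference over the 29 genes was -0.56 against MHCC97L and -0.53 against MHCC97H on the log2 scale, where the median over all genes was 0.00 in each. Both HCCLM3 libraries lay below all 4 MHCC97 libraries for 15 of the 29 genes, beside 20.3% of all genes, and above all 4 for 3 genes, beside 19.5%. In bulk RNA, fewer cells that express a gene and less of its RNA per cell cannot be told apart. Stellate or fibroblast markers summed to 33.5 and 34.4 CPM in the HCCLM3 libraries and to at most 14.6 CPM in the others, with COL3A1 at 14.4 and 11.7 CPM in HCCLM3. Endothelial markers summed to 10.2 and 13.5 CPM in HCCLM3 and to at least 33.2 CPM in the others. The part of these markers in the line differences was not tested.

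**Figure D2:**
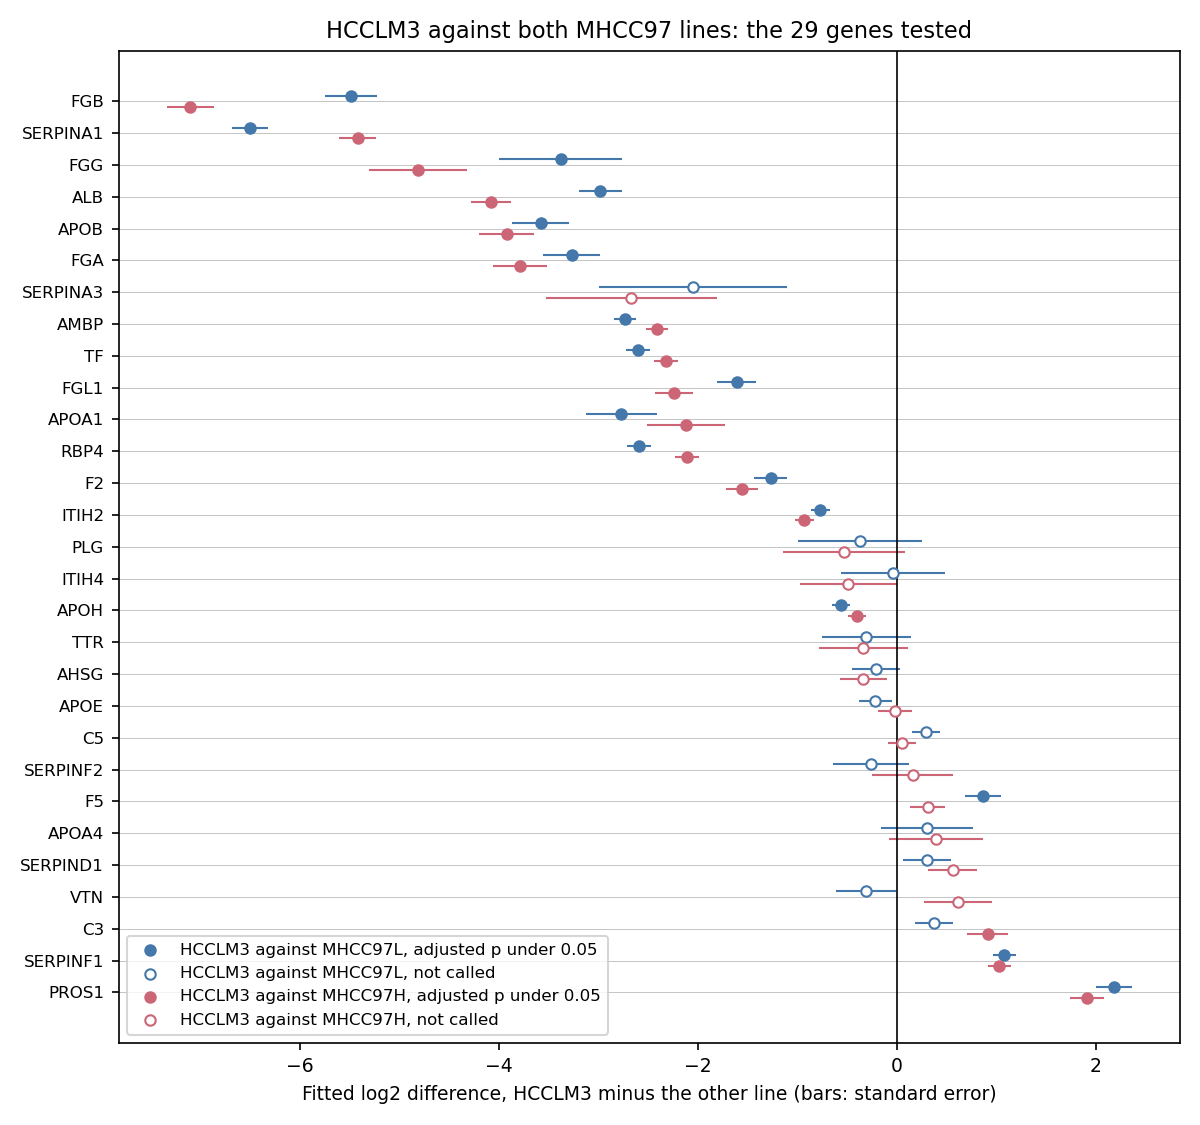
Fitted log2 difference of HCCLM3 from MHCC97L (blue) and from MHCC97H (red) for the 29 genes tested, with standard errors; filled points passed the adjusted p of 0.05. FGB and SERPINA1 lie farthest to the left, at -7.10 and -5.42 against MHCC97H, and PROS1 farthest to the right, at 1.91.

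Among the carriers, 4 of the 6 tested were lower in HCCLM3 against each MHCC97 line, and none was higher. Of all genes, 14.8% and 13.9% were lower against MHCC97L and MHCC97H, and 15.0% and 13.3% higher. Albumin (ALB, chr4:73397114-73421412) had 8.87, 22.9 and 1.43 CPM in the controls and 12.4, 22.5 and 1.26 CPM with TGF-β1. Its HCCLM3 libraries were the lowest of the 6 and its MHCC97H libraries the highest. The fitted difference of HCCLM3 was -2.98 (SE 0.217, adjusted p = 2.40e-05) from MHCC97L and -4.08 (SE 0.205, adjusted p = 3.98e-06) from MHCC97H. Transferrin (TF), the iron carrier, had 76.9, 68.4 and 14.8 CPM in the controls and 95.5, 72.9 and 13.5 CPM with TGF-β1, and it shares exon bases on the same strand with SRPRB, so its counts are uncertain. The retinol carrier RBP4 had 30.2, 22.9 and 5.47 CPM in the controls and 33.9, 23.0 and 5.18 CPM with TGF-β1. AMBP, whose product is cleaved into alpha-1-microglobulin and bikunin, had 40.0, 32.8 and 5.73 CPM in the controls and 45.9, 36.0 and 7.22 CPM with TGF-β1. In these 3 carriers the HCCLM3 libraries were more than 4-fold below every other library. The fitted differences of HCCLM3 from MHCC97L and MHCC97H were -2.60 and -2.32 for TF, -2.59 and -2.11 for RBP4, and -2.73 and -2.41 for AMBP. The fetuin gene AHSG did not pass the test in either comparison and had 3.74, 5.29 and 4.09 CPM in the controls and 3.95, 3.26 and 2.66 CPM with TGF-β1.

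The serpins held opposite patterns. SERPINA1 (chr14:94376747-94390693), which encodes alpha-1-antitrypsin, the main inhibitor of neutrophil elastase in plasma, had 54.2, 28.5 and 0.850 CPM in the controls and 114, 49.1 and 0.968 CPM with TGF-β1. Its HCCLM3 libraries held 16 and 20 counts and lay far below the other 4. Pooled over conditions, SERPINA1 was 92.0-fold higher in MHCC97L than in HCCLM3 (95% counting interval 66.3 to 132) and 43.2-fold higher in MHCC97H (31.0 to 61.8). The fitted differences of HCCLM3 were -6.50 (SE 0.184) and -5.42 (SE 0.188), with adjusted p = 1.23e-07 and 4.14e-07. SERPINF1, which encodes the antiangiogenic factor PEDF, went the other way, with 10.5, 11.6 and 23.5 CPM in the controls and 12.4, 11.9 and 24.6 CPM with TGF-β1. Its HCCLM3 libraries were above the other 4, and the fitted differences were 1.08 (SE 0.114, adjusted p = 1.81e-04) and 1.03 (SE 0.114, adjusted p = 2.64e-04). The other tested serpins, SERPINA3, SERPIND1 and SERPINF2, did not pass the test between lines. Expected counts of SERPINA1, SERPINA3, SERPINF1 and SERPINF2 had decimals, as arises where reads are divided between similar genes, so their levels may depend on that division. The same holds for APOH, C3, VTN, PLG, APOM and CFB.

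All 3 fibrinogen chains, FGL1 and prothrombin were lower in HCCLM3. FGB (beta chain) had 12.6, 45.9 and 0.265 CPM in the controls and 15.2, 39.2 and 0.339 CPM with TGF-β1. FGA (alpha chain) had 7.0, 12.4 and 0.850 CPM in the controls and 6.22, 7.0 and 0.533 CPM with TGF-β1. FGG (gamma chain), the weakest, had 1.09, 2.76 and 0.106 CPM in the controls and 0.622, 1.85 and 0.0484 CPM with TGF-β1. All chains were thus highest in the MHCC97H control library and lowest in the HCCLM3 libraries, which held only 12 counts of FGB and 3 of FGG together. Pooled over conditions, MHCC97H exceeded HCCLM3 139-fold for FGB (95% counting interval 79.6 to 270), 14.0-fold for FGA (9.49 to 21.5) and 30.0-fold for FGG (9.99 to 148). Against MHCC97L and MHCC97H the fitted differences of HCCLM3 were -5.49 and -7.10 for FGB, -3.27 and -3.79 for FGA, and -3.38 and -4.81 for FGG. The 3 genes lie within 1 cluster on chromosome 4. Over all 462 tested genes of that chromosome the median difference of HCCLM3 was 0.07 from MHCC97L and 0.08 from MHCC97H. A difference local to the cluster was not tested.

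Fibrinogen-like 1 (FGL1), a secreted hepatokine, had 7.40, 11.6 and 1.96 CPM in the controls and 6.89, 10.4 and 2.66 CPM with TGF-β1. Prothrombin (F2) had 6.96, 8.15 and 2.81 CPM in the controls and 8.22, 10.5 and 3.49 CPM with TGF-β1. The HCCLM3 libraries were the lowest of both genes, with fitted differences of -1.61 and -2.24 for FGL1 and -1.27 and -1.56 for F2. Protein S (PROS1), an anticoagulant cofactor, was higher in HCCLM3: it had 2.35, 2.76 and 9.88 CPM in the controls and 1.91, 2.36 and 9.39 CPM with TGF-β1. Its fitted differences were 2.18 (SE 0.177, adjusted p = 4.33e-05) and 1.91 (SE 0.173, adjusted p = 8.50e-05). Factor V (F5), a clotting cofactor made in liver and megakaryocytes, had 16.8, 27.9 and 26.4 CPM in the controls and 12.6, 15.8 and 26.1 CPM with TGF-β1. It was higher in HCCLM3 than in MHCC97L by 0.86 (SE 0.181, adjusted p = 0.00992), a call that was lost when either MHCC97L library was left out (adjusted p = 0.0591 and 0.0580), and it did not pass against MHCC97H (0.31, adjusted p = 0.243). Plasminogen (PLG) stayed under 1 CPM and did not pass.

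Of the apolipoproteins, 3 of the 5 tested were lower in HCCLM3 against each line, beside 14.8% and 13.9% of all genes. APOB, the structural protein of very low density lipoprotein, had 9.31, 14.3 and 0.743 CPM in the controls and 6.58, 6.49 and 0.581 CPM with TGF-β1. Its fitted differences of HCCLM3 were -3.58 (SE 0.284) and -3.92 (SE 0.276). APOA1, the main protein of high density lipoprotein, stayed under 3 CPM in all libraries and differed by -2.77 and -2.12. APOH had 43.3, 37.4 and 28.7 CPM in the controls and 42.3, 39.3 and 29.2 CPM with TGF-β1. Its differences were smaller, -0.56 (adjusted p = 0.00176) and -0.40 (adjusted p = 0.0108), and each was lost when 1 MHCC97 library was left out (adjusted p = 0.0632 without the MHCC97L control, 0.0727 without the MHCC97H TGF-β1 library). APOE, a ligand of lipoprotein receptors, was nearly even over the libraries, with 5.44, 5.34 and 4.83 CPM in the controls and 6.89, 5.41 and 5.76 CPM with TGF-β1, and it did not pass in any comparison. APOB, APOA1 and FGL1 share exon bases with genes on the opposite strand, and the counting is not stated to use strand, so reads of those genes cannot be told apart from theirs. APOE shares exon bases with an unnamed gene on its own strand.

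Complement C3, the central component of complement, had 4.61, 3.43 and 7.43 CPM in the controls and 5.51, 3.52 and 5.67 CPM with TGF-β1. It was higher in HCCLM3 than in MHCC97H by 0.91 (SE 0.204, adjusted p = 0.0105). That call was lost without the MHCC97H control library (adjusted p = 0.0515), without the HCCLM3 control library (0.0618) and in DESeq2 (0.0521). C5 had 8.83, 11.1 and 10.2 CPM in the controls and 7.55, 8.33 and 9.68 CPM with TGF-β1 and passed in no comparison. ITIH2 had 136, 161 and 75.7 CPM in the controls and 124, 131 and 76.8 CPM with TGF-β1. Its HCCLM3 libraries were the lowest, with fitted differences of -0.77 (SE 0.0941, adjusted p = 3.97e-04) and -0.93 (SE 0.0943, adjusted p = 1.63e-04).

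MHCC97H differed from MHCC97L in 4 of the 29 genes, 3 higher and 1 lower, which is 13.8% beside 2.45% of all genes (1.37% higher and 1.09% lower). FGB was higher in MHCC97H by 1.62 (SE 0.135, adjusted p = 7.60e-04), FGG by 1.43 (SE 0.284, adjusted p = 0.0346) and ALB by 1.10 (SE 0.150, adjusted p = 0.00793). SERPINA1 was lower by 1.08 on the log2 scale, as a fitted difference of -1.08 (SE 0.117, adjusted p = 0.00278). In each of these genes both libraries of the higher line exceeded both of the lower one, most narrowly in SERPINA1, where the MHCC97L control had 54.2 CPM and the MHCC97H TGF-β1 library 49.1 CPM. The count fell when either MHCC97L library was left out and rose when either HCCLM3 library was. The share of all genes called in those fits is not given here, so neither shift can be read as particular to the list. Without the MHCC97L control the calls of ALB (adjusted p = 0.153) and FGG (0.365) ended, and without the MHCC97L TGF-β1 library those of SERPINA1 (0.0641) and FGG (0.263). FGG also lost its call without either MHCC97H library (0.167 and 0.186) and in DESeq2 (0.532).

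The sequence before the start of these genes was read for short motifs of liver factors and SMAD proteins. RefSeq promoter windows (GRCh38.p14) were at hand for 12 of the 17 genes with a mean of 5 CPM or more, giving 20 distinct windows, and the 250 bases before each start were searched on both strands. The genes with no window were SERPINF1, FGL1, APOB, C3 and ITIH2. Among the genes called after TGF-β1, SERPINA1 was the one with a mean of 5 CPM or more and a window, and it is shown for that reason. ALB, FGA and FGB were added after their values were seen. They were among the genes with a window that were called lower in HCCLM3 against both MHCC97 lines. TF, RBP4, AMBP, F2 and APOH met the same condition and are not printed. Of these, F2 and APOH held an HNF1 match, and TF, RBP4 and AMBP held none. The printed sequences therefore do not stand for the genes that were lower in HCCLM3. Each sequence runs 5′ to 3′ on the gene's strand and is the longest stretch of the window outside annotated exons. Capitals mark the motif matches: HNF1 in ALB, FGA and FGB, C/EBP also in ALB, and SMAD in SERPINA1.
SERPINA1 (chr14:94390694-94390885, minus strand, before the upstream start): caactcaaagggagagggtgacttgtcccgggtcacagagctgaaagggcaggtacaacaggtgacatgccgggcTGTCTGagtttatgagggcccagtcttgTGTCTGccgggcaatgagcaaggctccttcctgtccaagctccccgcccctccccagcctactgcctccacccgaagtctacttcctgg
ALB (chr4:73404037-73404238, plus strand): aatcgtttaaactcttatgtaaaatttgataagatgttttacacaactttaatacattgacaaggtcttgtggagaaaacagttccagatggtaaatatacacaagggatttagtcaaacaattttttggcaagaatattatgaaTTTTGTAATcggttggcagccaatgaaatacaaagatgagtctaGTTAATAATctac
FGA (chr4:154590767-154590992, minus strand): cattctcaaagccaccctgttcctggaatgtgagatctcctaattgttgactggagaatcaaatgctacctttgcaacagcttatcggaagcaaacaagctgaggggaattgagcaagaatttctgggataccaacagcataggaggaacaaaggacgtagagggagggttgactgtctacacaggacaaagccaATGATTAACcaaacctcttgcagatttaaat
FGB (chr4:154562730-154562955, plus strand): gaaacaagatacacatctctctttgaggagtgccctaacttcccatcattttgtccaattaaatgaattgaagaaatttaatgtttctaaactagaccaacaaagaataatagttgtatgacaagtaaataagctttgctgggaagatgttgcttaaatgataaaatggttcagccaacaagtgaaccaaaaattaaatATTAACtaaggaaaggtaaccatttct

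The short HNF1 motif GTTAAT was found in 8 of the 20 windows, belonging to 7 genes (ALB, FGB, FGA, C5, F2, SERPINA1 and APOH), and in 6.23% of the 35116 windows of the table. Its longer form GTTAATNAT, which contains it, was found in 3 windows (ALB, FGA, C5) and in 0.723% of all. In ALB the longer form begins 61 bases before the start and in FGA 55, and in FGB the short form begins 51 bases before. The C/EBP motif TTNNGNAAT was found in 5 windows of 4 genes, ALB, FGB, RBP4 and APOH, and in 9.85% of all windows, and the match in FGB reaches into annotated exon bases and is not marked in the printed stretch. The SMAD motif CAGACA was found in 3 windows (F2, SERPINA1, APOE) and in 13.6% of all. Its matches in SERPINA1 begin 175 and 147 bases before the upstream start. The SERPINA1 window before the downstream start, which is annotated as exon and not printed, held GTTAAT 76 bases before that start. This downstream window held no SMAD match, and which start the lines used was not tested. The TATA box motif TATAAA was found in 2 windows, both of RBP4, and in 10.7% of all. The motifs CAAAGTCCA (HNF4), TTGCGCAA (C/EBP), TGTTTAC (FOXA) and GTCTAGAC (SMAD) had no match in the 20 windows, beside 0.325%, 0.131%, 2.98% and 0.182% of all windows, which says only that these letters are not in these windows. A match is a string of letters and no measure of binding, and the share over windows was not tested.

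After 4 h of TGF-β1, SERPINA1 and SERPIND1 rose and APOB fell over the 3 lines. These were 3 of the 29 genes tested, or 10.3%, beside 14.4% of all 14176 genes (7.79% higher and 6.65% lower), so the list was called at no higher a share than other genes. At an unadjusted p under 0.05 there were 10 genes, beside 30.5% of all. The median fitted change was 0.02 on the log2 scale, beside 0.00 over all genes, with 16 estimates above 0 and 13 below. The control and TGF-β1 libraries did not overlap for 2 of the 29, SERPIND1 and ITIH4, beside 18.0% of all genes. ITIH4 stayed under 1 CPM, and its fitted change of 0.45 (SE 0.400) did not pass (adjusted p = 0.489). With library totals in place of TMM scaling, the calls over all genes moved from 1104 higher and 943 lower to 806 higher and 1365 lower, while the 3 calls of the list stayed.

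SERPINA1 rose by 0.89 (SE 0.114, adjusted p = 0.00169), a fitted 1.85-fold. Within lines, the log2 change was 1.07 in MHCC97L (95% counting interval 0.98 to 1.17), 0.78 in MHCC97H (0.64 to 0.93) and 0.17 in HCCLM3 (-0.83 to 1.23). The MHCC97 libraries went from 54.2 to 114 CPM and from 28.5 to 49.1 CPM, and the HCCLM3 libraries from 0.850 to 0.968 CPM, so the conditions overlap across lines. Without the MHCC97L libraries the change was 0.68 and no longer passed (adjusted p = 0.0694). Whether the change differed between lines was not tested, as there is 1 library per line and condition.

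SERPIND1 (chr22:20773879-20787720), which encodes heparin cofactor II, an inhibitor of thrombin, rose by 0.82 (SE 0.202, adjusted p = 0.0300). It had 1.52, 1.57 and 1.91 CPM in the controls and 3.02, 2.19 and 3.68 CPM with TGF-β1, which is 33 to 36 counts per control library and 51 to 76 per TGF-β1 library. Every TGF-β1 library was above every control library. The within-line intervals were 0.38 to 1.62 in MHCC97L, -0.18 to 1.16 in MHCC97H and 0.35 to 1.56 in HCCLM3. The call ended without MHCC97L (adjusted p = 0.214), without HCCLM3 (0.0515) and in DESeq2 (0.209). The gene lies within PI4KA on the opposite strand, with no overlap of exons.

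APOB fell by 0.80 on the log2 scale, as a fitted change of -0.80 (SE 0.174, adjusted p = 0.0188). The change was -0.50 in MHCC97L (95% counting interval -0.81 to -0.19), -1.13 in MHCC97H (-1.44 to -0.86) and -0.31 in HCCLM3 (-1.60 to 0.86). Both MHCC97 lines ended at about the same level, 6.58 and 6.49 CPM, from 9.31 and 14.3 CPM. The call ended without MHCC97H (-0.49, adjusted p = 0.215) and in DESeq2 (adjusted p = 0.0875).

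**Figure D3:**
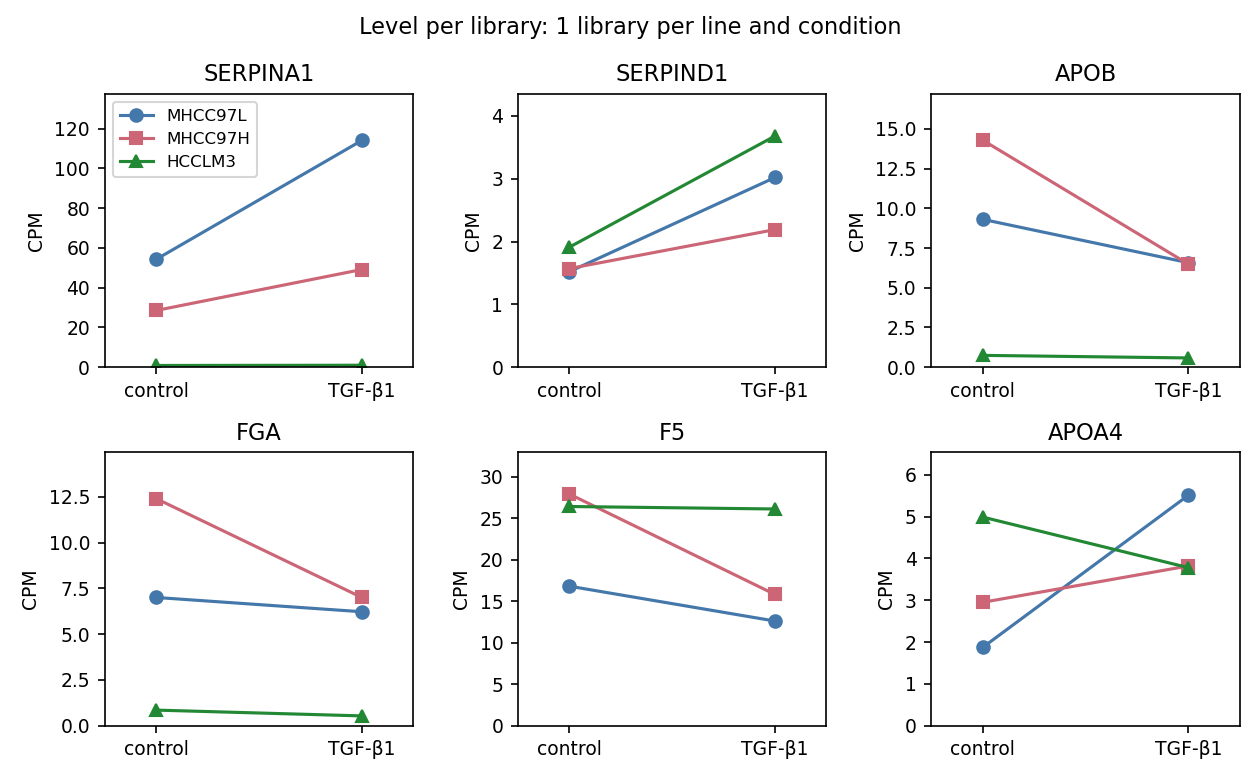
Level in CPM of 6 genes in the control and the TGF-β1 library of each line, 1 library per point, with lines joining the libraries of a cell line. SERPINA1 goes from 54.2 to 114 CPM in MHCC97L and lies near 1 CPM in HCCLM3, the TGF-β1 point of SERPIND1 is the higher one in all 3 lines, and APOA4 goes from 1.87 to 5.51 CPM in MHCC97L.

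The other genes did not pass the test over the 3 lines, and some had within-line counting intervals that left out 0. FGA had a fitted change of -0.53 (SE 0.174, adjusted p = 0.0743), with -0.82 in MHCC97H (95% counting interval -1.12 to -0.54) and -0.17 in MHCC97L (-0.51 to 0.16). F5 had -0.42 (SE 0.147, adjusted p = 0.105), with -0.81 in MHCC97H (-1.01 to -0.63), -0.42 in MHCC97L (-0.65 to -0.20) and -0.02 in HCCLM3 (-0.20 to 0.16). APOA4, an apolipoprotein best known from the intestine, had 0.47 (SE 0.386, adjusted p = 0.480), with 1.51 in MHCC97L (1.05 to 2.09) and -0.39 in HCCLM3 (-0.85 to 0.05). Its control libraries held 1.87, 2.95 and 4.99 CPM and its TGF-β1 libraries 5.51, 3.82 and 3.78 CPM, and it overlaps exons of an antisense gene. Without the HCCLM3 libraries 6 genes of the list were called in MHCC97L and MHCC97H, APOB, APOA4, ITIH2, FGA, SERPINA1 and F5, when 27.7% of all genes were called. Without MHCC97L, APOB alone was called, when 4.29% of all genes were, and without MHCC97H SERPINA1 and SERPIND1, when 6.86% were.

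Several genes of high level had small estimates, unlike SERPINA1. ITIH2 had a fitted change of -0.14 (SE 0.0762), APOH 0.02 (SE 0.0737), TF 0.12 (SE 0.0910), AMBP 0.20 (SE 0.0843), RBP4 0.05 (SE 0.0931), SERPINF1 0.11 (SE 0.0942) and FGB 0.00 (SE 0.131), and none passed. Within MHCC97L, 95% counting intervals left out 0 for TF (0.22 to 0.40), AMBP (0.07 to 0.33), RBP4 (0.02 to 0.32) and ITIH2 (-0.21 to -0.06). That of ITIH2 also did in MHCC97H (-0.37 to -0.23). The intervals of APOH and SERPINF1 included 0 in every line. ALB had 0.16 (SE 0.141, adjusted p = 0.488), with 0.48 in MHCC97L (95% counting interval 0.22 to 0.75) and -0.03 in MHCC97H (-0.21 to 0.15). FGB had 0.27 in MHCC97L (0.04 to 0.50) and -0.23 in MHCC97H (-0.36 to -0.10), so the 2 lines lay on opposite sides of 0. AHSG had a fitted change of -0.40 (SE 0.191, adjusted p = 0.194), with -0.68 in MHCC97H (-1.14 to -0.26) and -0.60 in HCCLM3 (-1.14 to -0.10), and C3 had -0.39 in HCCLM3 (-0.76 to -0.03). The acute-phase serpin SERPINA3 had the lowest estimate, -1.66 (SE 0.600, adjusted p = 0.108), from 18, 45 and 7 counts in the controls to 16, 7 and 0 counts with TGF-β1.

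**Figure D4:**
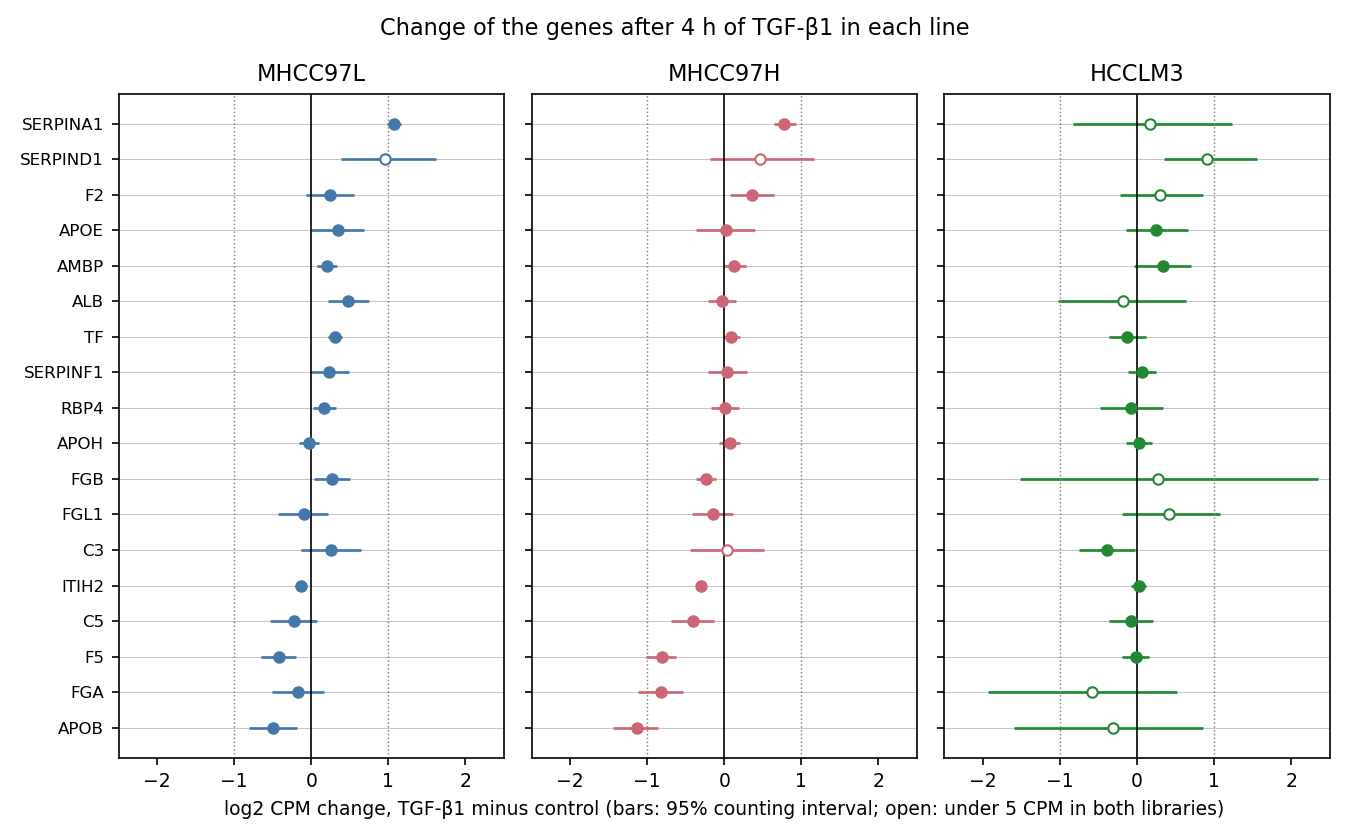
Change of 18 genes after TGF-β1 in each line, as the log2 difference of CPM with its 95% counting interval; open points are genes under 5 CPM in both libraries of the line, and dotted lines mark a 2-fold change. SERPINA1 passes the 2-fold line upward in MHCC97L and APOB passes it downward in MHCC97H, while the filled points of HCCLM3 lie within it.

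Counted within lines at 2-fold or more among genes with 5 CPM or more in either library, MHCC97L had 2 of 18 higher (SERPINA1 and APOA4) and none lower, beside 1.27% and 0.407% of all genes. MHCC97H had 1 of 17 lower (APOB) and none higher, beside 0.657% and 1.80%. HCCLM3 had 0 of 11 in either direction, beside 1.31% and 0.479%. At 1.5-fold or more MHCC97H had 1 higher (SERPINA1) and 4 lower (AHSG, FGA, F5 and APOB), beside 5.16% and 3.94% of all genes. At the same fold MHCC97L had the same 2 genes higher, beside 3.58%, and none lower, beside 2.17%, and HCCLM3 had none in either direction, beside 3.50% and 2.23%. Among genes with 5 CPM or more in either library of both lines, none differed by 1.5-fold or more in opposite directions in a pair of lines. The median log2 change of the listed genes with 5 CPM or more in either library was 0.22, -0.03 and -0.02. Over all genes at that level it was 0.01, 0.00 and -0.01.

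Transcription factors that drive plasma protein genes were read from a separate list, of which 17 of 20 were tested. After TGF-β1, 2 rose and 8 fell, 58.8% beside 14.4% of all genes. The list was chosen with earlier results of these data known, and these shares were not compared by a test. HNF4A rose by 0.97 (SE 0.0707, adjusted p = 1.14e-04), from 105, 97.9 and 79.0 CPM to 188, 208 and 157 CPM, and every TGF-β1 library was above every control library. CEBPA fell, with a fitted change of -1.05 (SE 0.110, adjusted p = 9.88e-04), from 87.8, 109 and 66.2 CPM to 47.9, 59.3 and 24.9 CPM. HNF4G (-0.77), PPARA (-0.60) and CREB3L3 (-0.57) fell as well. With DESeq2, 1 rose and 5 fell, and the same counts were found without MHCC97H; without MHCC97L 1 rose and 6 fell, and without the term for line none was called. Between lines, 8 were lower and 2 higher in HCCLM3 against MHCC97L, beside 14.8% and 15.0% of all genes, and 9 lower and 1 higher against MHCC97H, beside 13.9% and 13.3%. FOXA1, which opens chromatin at liver genes, had 23.4, 32.2 and 4.94 CPM in the controls and 24.0, 30.8 and 6.10 CPM with TGF-β1, with fitted differences of HCCLM3 of -2.10 and -2.51. PROX1 was higher in HCCLM3, by 4.72 and 2.84. HNF4A itself differed by -0.34 (adjusted p = 0.0174) and -0.36 (adjusted p = 0.0140). CEBPA, FOXA1 and PROX1 share exon bases with genes on the opposite strand and are uncertain to that extent. Whether any factor acts on the genes of the list was not tested.

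**Figure D5:**
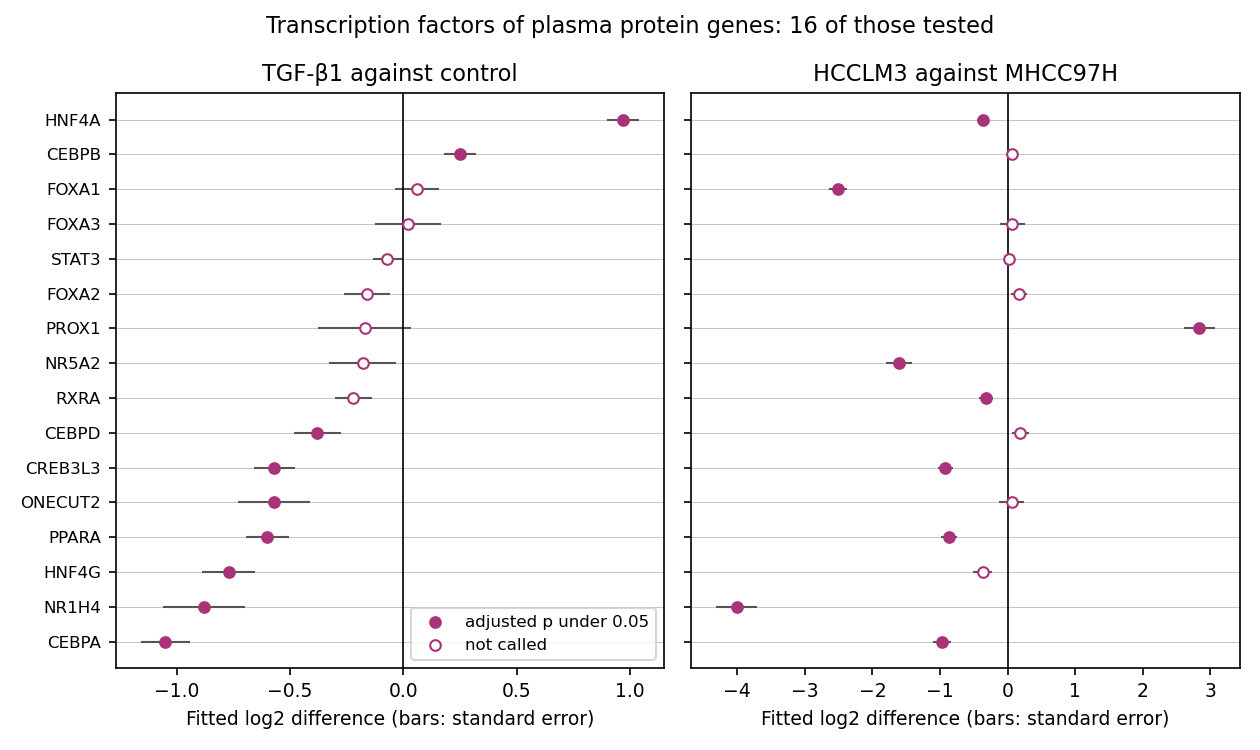
Fitted log2 difference of 16 transcription factors after TGF-β1 (left) and of HCCLM3 from MHCC97H (right), with standard errors; filled points passed the adjusted p of 0.05. HNF4A stands at 0.97 and CEBPA at -1.05 on the left, and FOXA1 at -2.51 and PROX1 at 2.84 on the right.

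Of 29 other secreted liver proteins 11 were tested. After TGF-β1 1 of the 11 was called, or 9.09% beside 14.4% of all genes. Ceruloplasmin (CP), a copper-carrying ferroxidase, had 352, 392 and 130 CPM in the controls, and its differences of HCCLM3 were -1.55 and -1.48. Between lines, 4 of the 11 were lower and 3 higher in HCCLM3 against MHCC97L, beside 14.8% and 15.0% of all genes, and 4 lower and 2 higher against MHCC97H, beside 13.9% and 13.3%. Among other complement genes, 9 of 18 were tested. C4BPA, which encodes an inhibitor of C4b, fell after TGF-β1 (-0.48, adjusted p = 0.0311), a call lost without MHCC97L (adjusted p = 0.122), without MHCC97H (0.146) and in DESeq2 (0.0734), and was higher in HCCLM3 by 2.24 and 1.65. C1R and C1S, the proteases of the C1 complex, were higher in HCCLM3, by 0.50 and 0.89 and by 0.35 and 0.70.

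Genes of lipoprotein assembly and uptake, 10 of 14 tested, had 2 higher and 1 lower after TGF-β1, beside 7.79% and 6.65% of all genes. The cholesterol exporter ABCA1 rose by 0.32 (adjusted p = 0.0277), a call lost without MHCC97L (0.188), without MHCC97H (0.0901) and in DESeq2 (0.0773). MTTP, which loads lipid onto APOB, had a change of -0.47 that did not pass (adjusted p = 0.0560) but passed with upper quartile scaling (0.0424), library totals (0.0414), limma-voom (0.0480) and without HCCLM3 (0.0489). In HCCLM3 MTTP differed by -0.84 and -1.10 and ABCA1 by 1.83 and 1.57. In the acute-phase signalling list, 11 of 15 were tested, 1 rose and 3 fell, beside 7.79% and 6.65% of all genes: NFKB1 rose by 0.29, and the receptor genes IL6R (58.5, 70.2 and 71.8 to 30.8, 34.5 and 34.8 CPM, adjusted p = 1.05e-04), IL1R1 (-0.40) and IL6ST (-0.32) fell. IL6R stayed called with any line left out, whereas the other calls were lost without MHCC97L (adjusted p = 0.246 for NFKB1, 0.207 for IL1R1, 0.214 for IL6ST) and without MHCC97H (0.0859, 0.119 and 0.227), and that of IL6ST also without the low-count filter (0.0688) and in the non-robust fit (0.0570). Of 15 secretory pathway and carboxylation genes, all tested, 1 rose after TGF-β1, or 6.67% beside 14.4% of all genes, the protease gene FURIN, by 1.20 (SE 0.0721, adjusted p = 5.49e-05). In HCCLM3 the chaperone genes CANX (-0.80 and -0.79) and PDIA3 (-0.56 and -0.62) were lower than in MHCC97L and MHCC97H. CP, MTTP, IL1R1, IL6ST, CANX and PDIA3 share exon bases with opposite-strand genes, and C1R and C1S with same-strand genes.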

How the data were processed

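RNA sequencing of 6 libraries was analysed: 3 liver cancer lines, each with and without TGF-β1. The authors deposited expected counts per gene with Ensembl IDs, per the file headers and values; 63.6% to 64.6% of a library's values were whole numbers. Per the submitters' processing notes, hg38 was the build and Cuffdiff 1.3.0, Cufflinks 2.2.1 and TopHat2 2.1.1 were among the tools. Which program counted the reads, the kit and its strand are not given in the sources used here. RNA was extracted with Trizol, per the labels' protocols. Fractional counts can arise where reads are divided among genes, and 10 of the 43 genes of the list carry such values. Of the genes named from other lists, CP, HNF4A, PPARA, IL6R, IL1R1, CANX and PDIA3 carry them too.

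Symbols, coordinates and exon lengths came from GENCODE 29 (GRCh38), and promoter windows from RefSeq. Counts were rounded to whole numbers (totals moved by 134 or less), and genes were kept by filterByExpr on treatment, leaving 14176. They were tested with edgeR 4.0.16 in R 4.3.3 (TMM factors 0.972 to 1.03, robust quasi-likelihood F test with bias-adjusted deviances, terms for line and treatment, 2 residual degrees of freedom) with Benjamini-Hochberg adjustment over all genes at 0.05. All tests are two-sided. The same fit gave the 3 comparisons of lines, each resting on 2 libraries a line that differ in treatment. A standard error is the fitted change divided by the square root of F. Libraries are paired by cell line, as the labels give it; deviations of the control and TGF-β1 library from their group means correlated across genes at 0.708, 0.578 and 0.801 in MHCC97L, MHCC97H and HCCLM3. Changes within a line are differences of log2 CPM with a prior count of 2, with 95% exact conditional binomial intervals that cover counting error only, as reads carried no molecular identifiers. The fit was also run on simulated counts in which a changed gene changed alike in every line. That run does not cover responses that differ between lines.

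The members and gene lists were chosen with earlier results of these data known. Genes of the list were named with values in every library if called after TGF-β1 or at a mean of 5 CPM or more, or if they reached 5 CPM in a library; of other lists, up to 6 genes with the smallest p at a mean of 5 CPM or more. Alternatives were other scalings, no filter on low counts, DESeq2 1.42.0, limma-voom (limma 3.58.1), a non-robust fit, no block for line, each library or line left out, and, added after seeing the data, the fit without bias-adjusted deviances. Some genes of these lists are counted but not reported here by name.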

Additional observations from a re-analysis of the deposited data

How the results depend on the processing

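After TGF-β1 the list had 3 calls. DESeq2 gave 1 (SERPINA1), and leaving out 1 line gave 1 to 6. Without the replicate block for the paired libraries of a line, edgeR gave 0, with 1 gene at an unadjusted p under 0.05 and adjusted p = 0.879 for SERPINA1, 0.329 for SERPIND1 and 0.824 for APOB, and 10 of all genes were called in place of 2047. Without the block none of the named genes of the acute-phase, complement, lipoprotein and secretory lists was called. Leaving out 1 line gave 611 to 3971 calls over all genes. Over all alternatives run, the adjusted p ran from 3.38e-06 to 0.879 for SERPINA1, 0.0297 to 0.329 for SERPIND1 and 0.00230 to 0.824 for APOB.

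Estimates after TGF-β1 that changed sign were all uncalled. With 1 line left out they ran from -0.06 to 0.35 for ALB, -0.01 to 0.20 for TF, -0.03 to 0.09 for RBP4, -0.19 to 0.27 for FGB, -0.14 to 0.06 for FGL1, -0.01 to 0.05 for APOH and -0.20 to 0.16 for C3. FGB was -0.03 with upper quartile scaling, -0.04 with library totals, -0.01 without the filter, -0.04 in limma-voom and -0.10 without the block. APOH was -0.01 with upper quartile scaling and -0.03 with library totals, and FGL1 was 0.02 in DESeq2 and 0.01 without bias-adjusted deviances. The causes were not tested.

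MHCC97H against MHCC97L gave 2 to 9 calls with 1 library left out, against 4. The counts for HCCLM3, 17 and 17, stayed within 1.5 times under every alternative run. The count within MHCC97H went from 1 at 2-fold to 5 at 1.5-fold, and the summed level in HCCLM3 from 239 to 238 CPM with library totals. Genes with few counts in HCCLM3 (FGB, FGG) and the 14 untested genes are limited by depth.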
